A study of Homo sapiens with 6 samples.

Results

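The integrated stress response genes ATF4, ATF5, DDIT3, TRIB3, CHAC1, ASNS, SESN2, DDIT4 and PPP1R15A, together with the stress cytokine gene GDF15, were followed in BT549 cells depleted of BNC2. These 10 genes were picked by symbol from a table of 23346 genes, with the fall of GDF15 in the same 6 libraries already known, so the differences and calls given for them only describe these libraries, no p-value is printed for them and they support nothing. BT549 is 1 human breast cancer cell line, labelled as mesenchymal and of WT genotype, and BNC2 (basonuclin-2) is a zinc finger protein. RNA-seq was made from 3 samples that received NC siRNA, the non-targeting control, and from 3 that received BNC2 siRNA, an equal mix of 3 duplexes against BNC2, both at 20 nM. RNA was taken 6 days after transfection, and the methods describe the libraries as biological replicates.

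In the integrated stress response, a kinase that senses amino acid shortage, unfolded protein in the endoplasmic reticulum, double-stranded RNA or haem shortage phosphorylates the initiation factor eIF2. General translation then slows, while mRNAs with upstream open reading frames, those of ATF4, ATF5, DDIT3 and PPP1R15A among them, are translated better, so their mRNA levels are only part of their regulation. ATF4 protein activates genes for amino acid supply, redox balance and cell death, and PPP1R15A closes the loop by bringing a phosphatase back to eIF2. GDF15 encodes a secreted cytokine of the TGF-beta superfamily, induced by ATF4 and DDIT3 in stressed tissues and often raised in cancer, which curbs appetite through a receptor in the hindbrain.

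The knockdown rests on 3 sense strands and the control strand, printed here because they define the groups. Capitals mark the 19 bases of the duplex that were matched, and the lower-case letters are the overhang.
BNC2 siRNA 1: GACUUGUGAUCAGUGUAAAtt
BNC2 siRNA 2: GGAAGACAUUCUAUGACAAtt
BNC2 siRNA 3: CCUCUGUACGAAGCCGAAAtt
NC siRNA: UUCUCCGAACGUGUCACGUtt
On GRCh37 (hg19) the BNC2 gene lies on the minus strand at chr9:16409501-16870841, and with exons counted from the 5′ end of its transcript of 7 exons, the strands match coding sequence in exon 4 (chr9:16583000-16583018), exon 6 (chr9:16436834-16436852) and exon 7 (chr9:16419045-16419063). Each matched transcripts of BNC2 alone, the control strand matched none, and 0 transcripts of the 10 genes held a perfect match. Only perfect matches over the 19 bases were searched, so shorter matches, through which siRNAs can also act, were not examined. All BNC2 siRNA libraries received the same mix, so loss of BNC2 and other effects of the mix cannot be told apart. In CPM (read counts relative to library size, scaled by the TMM method), BNC2 stood at 65.6, 51.5 and 58.6 with NC siRNA and at 35.5, 36.6 and 41.6 with BNC2 siRNA. It therefore kept 64.7% of its control level (log2 fold change -0.63, SE 0.09, adjusted p = 8.2e-06, edgeR quasi-likelihood test).

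Between 16093978 and 18246254 reads were counted on genes in each library, and 3 counts, taken as the floor, correspond to 0.168 to 0.191 CPM. A gene was tested if it exceeded 1 CPM in at least 3 libraries, and called at a Benjamini-Hochberg adjusted p of at most 0.05. The background was wide. Of 12186 genes tested, 72.9% were called, 36.6% higher and 36.2% lower with BNC2 siRNA, and the groups did not overlap for 74.9%, with all BNC2 siRNA libraries above for 37.7% and all below for 37.2%. The median log2 fold change over all genes tested was 0.0014. The mesenchymal markers VIM, FN1, CDH2 and ZEB1 were detected in every library, from 120.3 CPM for ZEB1 to 3024 CPM for VIM as NC siRNA means, while the epithelial markers CDH1, EPCAM, ESRP1 and GRHL2 had at most 1 count in a library. All 4 mesenchymal markers were called higher with BNC2 siRNA (log2 fold change 1.36 for CDH2, 0.39 for FN1, 0.34 for ZEB1 and 0.18 for VIM), and the part of this shift in the results was not tested. Of the leukocyte and endothelial markers PTPRC, CD14, CD3E, PECAM1 and CDH5, only CD14 passed the filter. It was called lower, from 1.70 ± 0.322 to 0.635 ± 0.111 CPM (log2 fold change -1.42), and its cause was not tested.

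All 10 genes passed the filter. Among them 7 were called lower (ATF4, ATF5, DDIT3, CHAC1, ASNS, PPP1R15A and GDF15), 1 higher (DDIT4), and 2 were not called (TRIB3 and SESN2). Their median log2 fold change was -1.28. In the same 8 genes the 2 groups of libraries did not overlap. As the genes were chosen with this contrast known, nothing is read from their count against the background. In bulk RNA, fewer cells expressing a gene and less of its RNA per cell cannot be told apart.

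**Figure D1:**
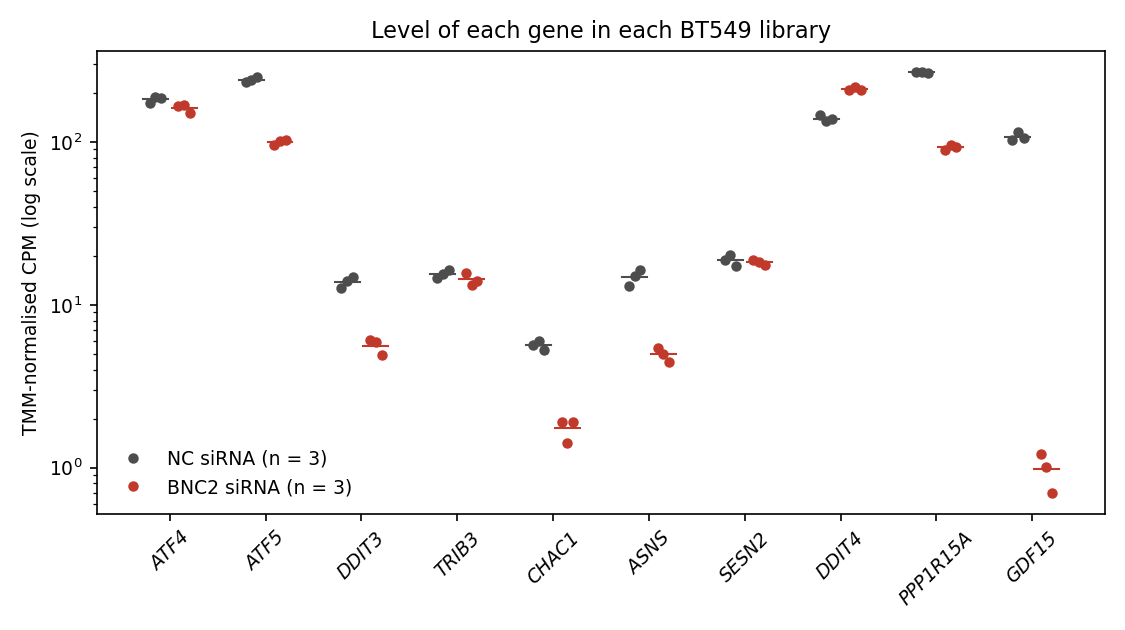
TMM-normalised CPM (log axis) of the 10 genes in each of the 6 BT549 libraries, grey for NC siRNA and red for BNC2 siRNA (n = 3 each), with a bar at each group's mean. GDF15 lies at 102 CPM or more in every NC siRNA library and at 1.22 CPM or less in every BNC2 siRNA library, DDIT4 is the gene whose BNC2 siRNA points all lie above the control points, and the points of TRIB3 and SESN2 overlap.

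The transcription factors come first. ATF4 (chr22:39915700-39918688, plus strand), the central activator of the response, measured 173, 189 and 187 CPM with NC siRNA and 166, 169.7 and 151 CPM with BNC2 siRNA. The groups did not overlap, but the gap between them was small, from 173 to 169.7 CPM. The mean went from 183 ± 8.73 to 162 ± 9.80 CPM (SD, n = 3), 88.9% of the control (log2 fold change -0.17, SE 0.06). ATF4 was the weakest of the called genes in this set: it was no longer called without NC siRNA replicate 2 (log2 fold change -0.16), without BNC2 siRNA replicate 3 (-0.12), without a filter on low counts (-0.14) or with the replicate number as a block (-0.17).

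ATF5 (chr19:50431959-50437192, plus strand), a related bZIP factor also translated through upstream open reading frames and known from the mitochondrial stress response, read 233, 239 and 249 CPM with NC siRNA and 96.1, 102 and 103 CPM with BNC2 siRNA. The groups stood far apart, and libraries within a group were close, with a coefficient of variation of 3.52% and 3.63%. Its level was 41.7% of the control (240.5 ± 8.46 to 100.3 ± 3.64 CPM, log2 fold change -1.26, SE 0.06).

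DDIT3 (chr12:57910371-57915520, minus strand) encodes CHOP, the factor linked to death under prolonged stress. Its values were 12.7, 14.0 and 14.7 CPM with NC siRNA and 6.05, 5.92 and 4.90 CPM with BNC2 siRNA. Every BNC2 siRNA library lay at less than the lowest control value, and the mean fell to 40.7% of the control (13.8 ± 1.02 to 5.63 ± 0.629 CPM, log2 fold change -1.29, SE 0.13). In GENCODE, DDIT3 shares 105 exonic bases with an unnamed gene model on its own strand and 60 with MARS1 on the opposite strand, and 45.5% of the reads over its exons came from that strand, 148 to 162 in each NC siRNA library and 104 to 153 in each BNC2 siRNA library. In the unstranded column of the deposited counts, which leaves out reads over genes on both strands and so holds few of these, the log2 fold change was -1.25, and the sum of both strands was not tested. For ATF5, which shares 75 exonic bases with NUP62 on the opposite strand, the other strand gave 8.5% of reads and the unstranded column, which is below the counted strand alone, a log2 fold change of -1.25.

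The effectors of amino acid and glutathione metabolism were both lower. ASNS (chr7:97480989-97501854, minus strand), which makes asparagine from aspartate and glutamine and is a classic amino acid response gene, measured 13.1, 15.01 and 16.3 CPM with NC siRNA and 5.47, 5.02 and 4.46 CPM with BNC2 siRNA. The groups were well separated. The mean went to 33.6% of the control (14.8 ± 1.60 to 4.98 ± 0.506 CPM, log2 fold change -1.57, SE 0.13). GENCODE places an unnamed gene model over 2374 bases of ASNS exons on the same strand, and reads of such models would not be told apart from those of ASNS. The annotation behind the counts was not used here, so the gene models counted for DDIT3, ATF5 and ASNS may differ from these.

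CHAC1 (chr15:41245160-41248710, plus strand) encodes a gamma-glutamylcyclotransferase that breaks down glutathione. It read 5.69, 5.99 and 5.30 CPM with NC siRNA and 1.92, 1.41 and 1.91 CPM with BNC2 siRNA. These levels stand on 88 to 107 counts in the control libraries and 25 to 33 counts after knockdown, and the groups did not overlap. CHAC1 kept 30.9% of its control level (5.66 ± 0.349 to 1.75 ± 0.291 CPM, log2 fold change -1.70, SE 0.19).

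The feedback regulators were PPP1R15A and TRIB3. PPP1R15A (chr19:49375469-49379316, plus strand), also called GADD34, recruits protein phosphatase 1 to eIF2. Its values were 270.0, 268 and 266 CPM with NC siRNA and 88.8, 95.9 and 93.3 CPM with BNC2 siRNA. The control libraries differed from each other by a coefficient of variation of only 0.749%. The level after knockdown was 34.6% of the control (268 ± 2.01 to 92.7 ± 3.57 CPM, log2 fold change -1.53, SE 0.06).

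TRIB3 (chr20:343479-378203, plus strand), a pseudokinase induced by ATF4 and DDIT3 that in turn dampens them, measured 14.6, 15.6 and 16.3 CPM with NC siRNA and 15.8, 13.2 and 14.0 CPM with BNC2 siRNA. The first BNC2 siRNA library lay inside the control range and the other two below it. The difference (15.5 ± 0.836 against 14.3 ± 1.31 CPM, log2 fold change -0.11, SE 0.10) was about as large as its standard error.

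SESN2 and DDIT4 both restrain mTORC1, the growth kinase complex, SESN2 as a leucine sensor acting on GATOR2 and DDIT4 (REDD1) through the TSC complex. SESN2 (chr1:28586029-28609002, plus strand) read 18.9, 20.3 and 17.3 CPM with NC siRNA and 18.9, 18.4 and 17.6 CPM with BNC2 siRNA. All 3 BNC2 siRNA values lay within the control range, at 97.2% of the control mean (log2 fold change -0.04, SE 0.09). DDIT4 (chr10:74033678-74035794, plus strand) went the other way, from 146, 135 and 138 CPM with NC siRNA to 208, 218 and 208 CPM with BNC2 siRNA. Each BNC2 siRNA library exceeded each control library, and the mean rose 1.52-fold (139 ± 5.88 to 212 ± 5.77 CPM, log2 fold change 0.60, SE 0.06).

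GDF15 (chr19:18485541-18499986, plus strand) had by far the largest difference of the set. Its read counts were 1818, 2044 and 1769 with NC siRNA, and 21, 18 and 11 with BNC2 siRNA. In CPM this was 102, 114 and 106 against 1.22, 1.02 and 0.700, and the low values were above the floor of 3 counts in each of the 3 libraries. The mean was 110.1-fold lower, from 108 ± 6.15 to 0.979 ± 0.262 CPM, which leaves 0.908% of the control (log2 fold change -6.76, SE 0.12). At this depth the low level carried a coefficient of variation of 26.8%, against 5.70% in the control libraries. On leaving out each library in turn, the log2 fold change stayed between -6.94 and -6.59.

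**Figure D2:**
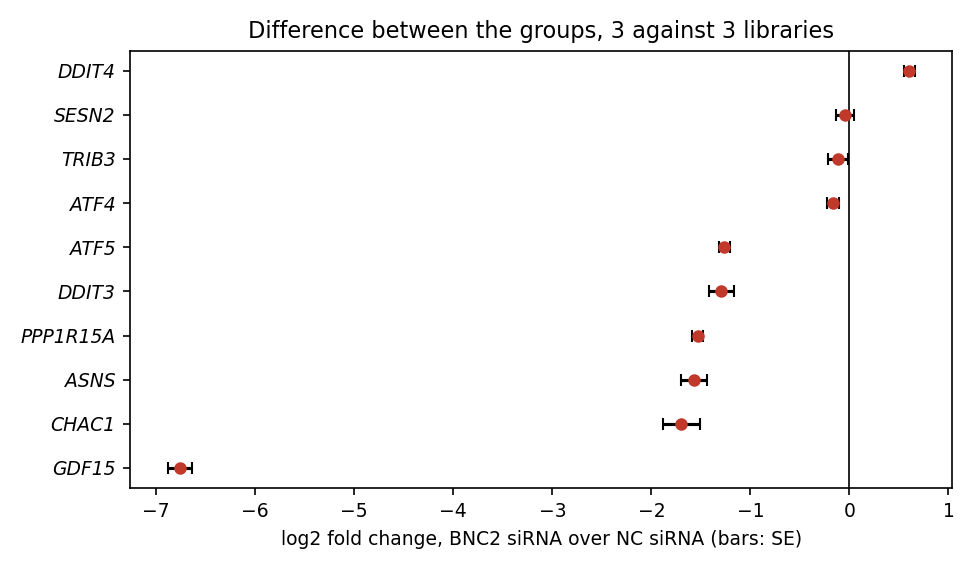
log2 fold change of the 10 genes, BNC2 siRNA over NC siRNA (x axis, 3 against 3 libraries), with bars for the standard error, ordered from DDIT4 at 0.60 to GDF15 at -6.76. CHAC1, ASNS, PPP1R15A, DDIT3 and ATF5 lie together between -1.70 and -1.26, and SESN2, TRIB3 and ATF4 lie between -0.17 and -0.04.

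The order of the genes by level also changed. Levels of different genes were compared as CPM per kb of transcript. With NC siRNA the order was ATF4 (129 ± 6.15), ATF5 (119.8 ± 4.21), PPP1R15A (114 ± 0.854), GDF15 (89.8 ± 5.12), DDIT4 (79.8 ± 3.37), DDIT3 (15.3 ± 1.13), TRIB3 (6.58 ± 0.355), ASNS (6.21 ± 0.672), SESN2 (5.44 ± 0.425) and CHAC1 (3.72 ± 0.229). The libraries of the neighbours ATF4 and ATF5, TRIB3 and ASNS, and ASNS and SESN2 overlapped, so these are not ordered beyond their spread.

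With BNC2 siRNA, DDIT4 came first (121 ± 3.30 CPM per kb), beside ATF4 (114 ± 6.90), whose libraries overlapped with it. ATF5 (49.96 ± 1.81) and PPP1R15A (39.4 ± 1.52) followed, then DDIT3 (6.23 ± 0.696) and TRIB3 (6.08 ± 0.556), which overlapped, SESN2 (5.29 ± 0.184), ASNS (2.09 ± 0.212), CHAC1 (1.15 ± 0.192) and GDF15 (0.816 ± 0.219), the last pair overlapping. GDF15 thus moved from rank 4 to rank 10 and DDIT4 from rank 5 to rank 1. The summed level of the 10 genes went from 1007 to 613 CPM.

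**Figure D3:**
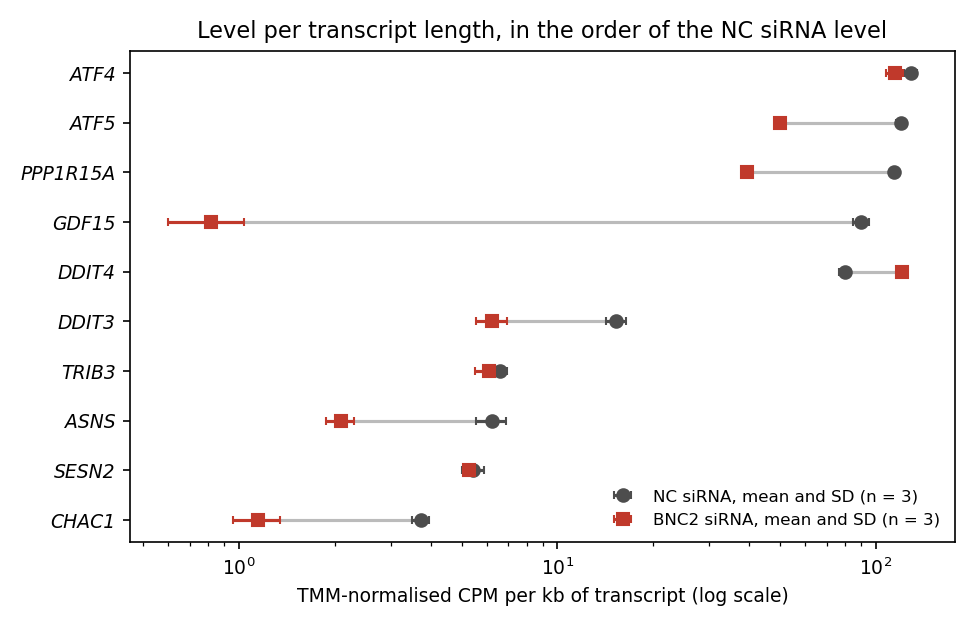
TMM-normalised CPM per kb of transcript (log axis) for the 10 genes in the order of their NC siRNA level, grey circles for NC siRNA and red squares for BNC2 siRNA, mean and SD of 3 libraries. GDF15 crosses from 89.8 to 0.816, below every other gene, and DDIT4 moves up to 121.

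For 4 of the genes that fell, each with a match marked below, the 250 bases upstream of the start site are printed, to show what their promoters hold. They are from RefSeq on GRCh38.p14 and not in the build of the counts, and all 10 genes had an entry. Capitals mark matches to TGATGNAA, the core of the amino acid response element bound by ATF4 with C/EBP factors, on either strand, to TGACGT, the CRE core of the ATF and CREB family, on either strand, and to TATAAA on the strand of the gene.
ASNS, chr7:97872409-97872658, minus strand: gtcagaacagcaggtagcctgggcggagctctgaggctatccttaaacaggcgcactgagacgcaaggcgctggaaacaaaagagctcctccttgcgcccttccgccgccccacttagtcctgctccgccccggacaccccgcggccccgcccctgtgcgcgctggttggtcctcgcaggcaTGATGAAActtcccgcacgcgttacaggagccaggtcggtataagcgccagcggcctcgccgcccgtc
CHAC1, chr15:40953221-40953470, plus strand: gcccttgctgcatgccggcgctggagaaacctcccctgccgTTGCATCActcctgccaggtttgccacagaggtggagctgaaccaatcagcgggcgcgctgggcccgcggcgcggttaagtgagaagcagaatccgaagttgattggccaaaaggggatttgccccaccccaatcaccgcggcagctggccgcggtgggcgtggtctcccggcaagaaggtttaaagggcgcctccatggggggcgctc
PPP1R15A, chr19:48872171-48872420, plus strand: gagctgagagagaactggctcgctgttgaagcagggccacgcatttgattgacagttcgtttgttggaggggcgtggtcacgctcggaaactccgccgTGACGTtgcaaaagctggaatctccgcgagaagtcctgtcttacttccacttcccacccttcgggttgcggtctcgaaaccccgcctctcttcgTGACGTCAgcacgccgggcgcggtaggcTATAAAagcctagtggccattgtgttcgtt
GDF15, chr19:18385908-18386157, plus strand: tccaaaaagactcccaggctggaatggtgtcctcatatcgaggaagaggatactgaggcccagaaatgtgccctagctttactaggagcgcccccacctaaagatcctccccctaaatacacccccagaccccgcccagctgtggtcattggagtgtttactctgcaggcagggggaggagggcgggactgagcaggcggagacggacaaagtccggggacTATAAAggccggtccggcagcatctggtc
The TGATGNAA core lay in ASNS at -68 to -61 from the start site and in CHAC1 at -209 to -202, on the other strand, and was found in 2 of the 10 genes and in 3.14% of 35116 promoter entries. The TGACGT core occurred in 1 of the 10, PPP1R15A, at -152 to -147 and in both orientations around -58 to -51, where they overlap, and in 7.10% of all entries. TATAAA was present in ATF4, PPP1R15A (-30 to -25) and GDF15 (-29 to -24), and in 6.80% of all entries. Members were tallied by gene and the background by entry, and some of the 10 genes had more than 1 entry, so these shares are in different units. ASNS had another entry, without the TGATGNAA core. ATF5 and DDIT3, which also fell, held none of these matches in any entry, and like ATF4 they are not printed. The capitals mark letters only, and binding was not measured.

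Genes around the response, taken by list, were tested in the same fit. The lists and the rule for naming genes were chosen with earlier results of these data known. Their shares and adjusted p-values therefore only describe these libraries. Upstream of ATF4, more genes were higher than lower. Of 21 genes of eIF2 phosphorylation and exchange, 10 rose (47.6%), 2 fell (9.52%) and 9 were not called, against 36.6% higher and 36.2% lower over all genes, and 57.1% of the list was called against 72.9%. The list's median log2 fold change was 0.16, against 0.0014 over all genes, and 0.09 with scaling by total counts alone, which moved the median of all genes to -0.07. Among the 4 kinases, EIF2AK4 (GCN2, the amino acid sensor) rose from 100.2 ± 2.19 to 157 ± 11.5 CPM (log2 fold change 0.64, SE 0.06, adjusted p = 9.9e-08, edgeR quasi-likelihood test). EIF2AK2 (PKR, log2 fold change 0.48) and EIF2AK1 (HRI, 0.40) also rose, and EIF2AK3 (PERK) was not called at -0.16, although it was called lower without NC siRNA replicate 3 (-0.24) and with scaling by total counts alone (-0.24). PPP1CB, a catalytic subunit of the phosphatase that PPP1R15A recruits, rose by 0.88 and EIF2B2, a subunit of the exchange factor, by 0.73, while the subunit PPP1CA fell by 0.66 on the log2 scale and EIF2S1, the subunit that is phosphorylated, fell by 0.27.

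Partners and regulators of ATF4 changed in both directions. Of 16 tested of 17, 6 rose (37.5%), 7 fell (43.8%) and 3 were not called (median log2 fold change -0.01), shares near the 36.6% and 36.2% of all genes. Over the 14 alternatives this median lay between -0.087 and 0.006. CEBPB, which pairs with ATF4 on its target sites, fell from 156 ± 4.98 to 32.0 ± 0.803 CPM (log2 fold change -2.29, SE 0.06, adjusted p = 2.4e-14, edgeR quasi-likelihood test). NFE2L2 (NRF2, the antioxidant factor) fell by 1.75 and the bZIP repressor ATF3 by 1.91 on the log2 scale. CEBPD (log2 fold change 1.39), FOS (0.95) and DENR (0.56), which helps ribosomes reinitiate on the ATF4 mRNA, rose. CEBPG, another dimer partner of ATF4 and named after its values were seen, stood at 61.7 CPM in both groups (log2 fold change 0.00, not called).

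The list of other targets of ATF4 or CHOP (DDIT3) in signalling and survival was mostly lower. Of 23 tested of 26, 16 fell (69.6%), 4 rose (17.4%) and 3 were not called (median log2 fold change -0.72), against 36.2% lower and 36.6% higher over all genes. The lists share members: CEBPB, CEBPG, ATF3 and JDP2 stand in this list and in that of the partners, so 3 of the 16 falls are counted in both, and HERPUD1, also lower, stands in the ATF6 and IRE1 list too. A list that is not reported here shares 3 genes with this one, 2 of them lower, GADD45A included. DNAJC3, called higher, is counted in both the eIF2 list and the ATF6 and IRE1 list. GADD45A, a growth arrest gene, fell from 170.0 ± 9.75 to 17.9 ± 1.48 CPM (log2 fold change -3.25, SE 0.08, adjusted p = 3.6e-15, edgeR quasi-likelihood test), and the autophagy receptor gene SQSTM1 from 1127 ± 33.8 to 198 ± 11.7 CPM (log2 fold change -2.51). Named after their values were seen, the secreted glycoprotein gene STC2 fell to a log2 fold change of -1.55 and the stress-induced NUPR1 to -1.91. PMAIP1 (NOXA, a BH3-only death gene) rose by 1.88, the oxidase gene ERO1L by 1.17 and the lipoprotein receptor gene VLDLR by 1.10.

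The list of amino acid synthesis genes, ASNS aside, was mostly higher. Of 13 tested of 14 genes, 10 rose (76.9%, against 36.6% of all genes) and 2 fell (median log2 fold change 0.62). The 10 include genes outside amino acid synthesis proper: MTHFD2, MTHFD1L and ALDH1L2 of folate metabolism and the carboxykinase gene PCK2. All of these but ALDH1L2 were named after their values were seen. ALDH1L2 of mitochondrial folate metabolism rose from 15.3 ± 1.70 to 50.1 ± 5.62 CPM (log2 fold change 1.71, SE 0.10, adjusted p = 2.1e-10, edgeR quasi-likelihood test), CBS of transsulfuration by 1.40 and PYCR1 of proline synthesis by 1.17, while 2 of the 3 serine synthesis genes, PHGDH and PSAT1, fell by 0.62 and 0.26. The third, PSPH, named after its values were seen, rose by 0.46. Of 9 tested of 10 amino acid transporter genes, 4 rose (44.4%) and 3 fell (33.3%), near the shares over all genes (median log2 fold change -0.04). That median ranged from -0.117 to -0.008 over the 14 alternatives. SLC7A1 (0.87), SLC38A2 (0.70) and SLC6A9 (0.52) rose, and SLC3A2 (-1.18), SLC1A4 (-0.76) and SLC43A1 (-0.56) fell. SLC3A2 encodes the heavy chain shared by the SLC7A5 and SLC7A11 transporters, whose own genes, named after their values were seen, were not called (log2 fold changes -0.04 and -0.07).

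The 12 tRNA synthetase genes linked to ATF4 had 5 called in each direction, or 41.7%, near the 36.6% higher and 36.2% lower of all genes (median log2 fold change 0.0031, and -0.07 with scaling by total counts alone). On leaving out each library in turn, that median lay between -0.04 and 0.01. The called genes included LARS (0.53), AARS (0.41) and IARS (0.33) among the higher and WARS (-0.79), CARS (-0.61) and TARS (-0.35) among the lower. Of 8 other cytosolic synthetase genes, 5 rose (62.5%, against 36.6% of all genes) and 3 were not called (median 0.45), with QARS at 1.09, VARS at 0.85 and HARS at 0.54. The ATF6 and IRE1 arms, the rest of the unfolded protein response, had 10 of 20 genes higher (50%) and 6 lower (30%), against 36.6% and 36.2% of all genes (median 0.11, and 0.03 with scaling by total counts alone). HYOU1 (0.64), SDF2L1 (0.61) and CRELD2 (0.39), which act in folding in the endoplasmic reticulum, rose. ERN1, which encodes IRE1 itself, fell by 1.29, DNAJB9 by 0.64 and SEL1L by 0.37. HSPA5 (BiP), named after its values were seen, had a log2 fold change of 0.18 and was no longer called with scaling by total counts alone.

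**Figure D4:**
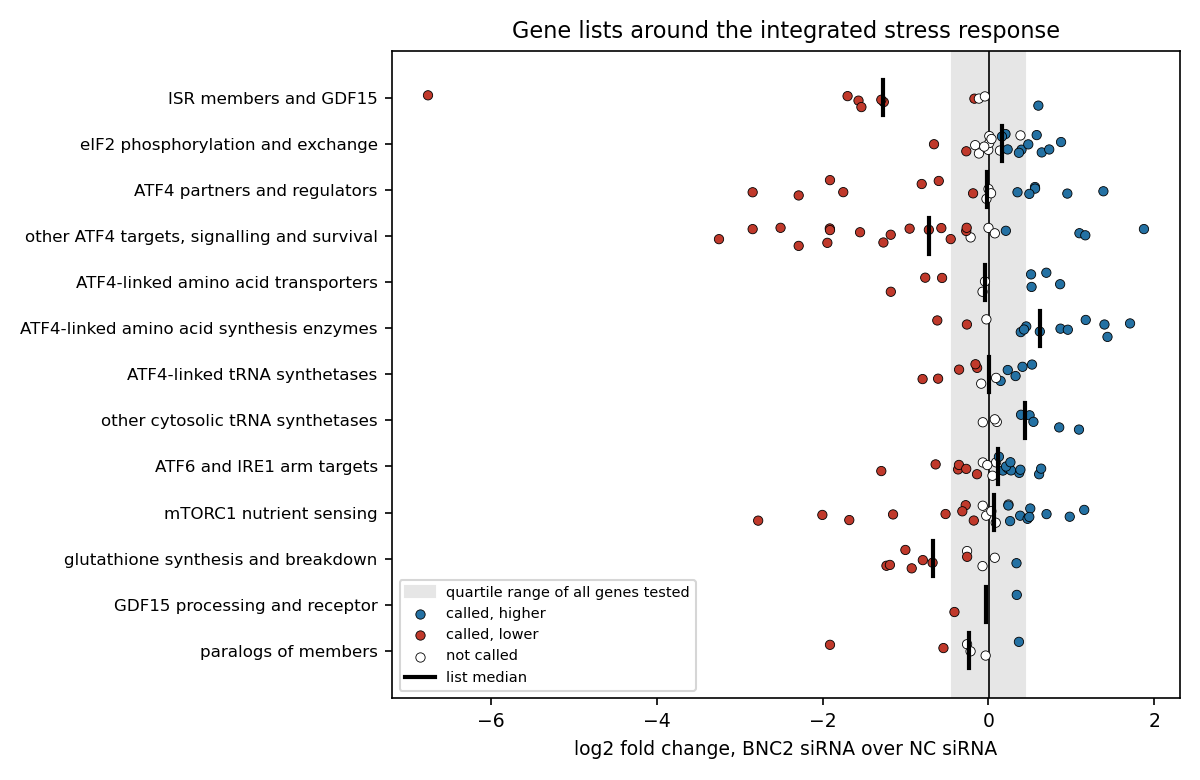
log2 fold change, BNC2 siRNA over NC siRNA, of every tested gene in the 10-gene set and in the lists around it (rows), blue where called higher, red where called lower and white where not called, points spread vertically at random; black bars are list medians and the grey band runs from the lower to the upper quartile of all genes tested (-0.44 to 0.44). The set of 10 has its median at -1.28, the row of other ATF4 targets, which also holds targets of CHOP (DDIT3), at -0.72, glutathione genes at -0.67 and the amino acid synthesis list at 0.62.

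Around SESN2 and DDIT4, the mTORC1 nutrient sensing list had 9 genes higher (40.9%), 8 lower (36.4%) and 5 not called of 22, against 36.6% and 36.2% of all genes. Its median log2 fold change was 0.06, and -0.014 with scaling by total counts alone. Leaving out each library in turn moved it between 0.01 and 0.09. WDR24 (1.16) and SEC13 (0.98), subunits of GATOR2, the complex that SESN2 binds, rose, as did the kinase gene MTOR (0.70). The other GATOR2 subunits, named after their values were seen, went both ways: SEH1L rose (0.47), and WDR59 (-0.31) and MIOS (-0.18) fell. DEPTOR, an inhibitor of mTOR, fell from 6.27 ± 0.321 to 0.901 ± 0.481 CPM (log2 fold change -2.78, SE 0.25, adjusted p = 3e-08, edgeR quasi-likelihood test), and RRAGC and RHEB, GTPases that activate mTORC1, fell by 1.68 and 1.15.

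Around CHAC1, 7 of the 11 tested of 14 glutathione genes fell (63.6%, against 36.2% of all genes), 1 rose and 3 were not called (median log2 fold change -0.67). GGCT, a cyclotransferase acting on gamma-glutamyl amino acids, fell by 1.23, GCLC, which catalyses the first step of glutathione synthesis, by 1.19, and GSR, which reduces oxidised glutathione, by 1.00 on the log2 scale. ANPEP, an aminopeptidase of the cell surface, rose by 0.34. OPLAH, which acts on the 5-oxoproline that CHAC1 releases and was named after its values were seen, was not called (0.08). Around GDF15, the convertase gene FURIN fell by 0.41 and PCSK7 rose by 0.34, while its receptor gene GFRAL was at or below the floor in both groups and the coreceptor gene RET averaged 0.151 and 0.0212 CPM.

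Of 6 tested of 8 relatives of the 10 genes, ATF3 included, 1 was called higher (16.7%), 2 were called lower (33.3%) and 3 were not called, against 36.6% and 36.2% of all genes. PPP1R15B, the constitutive counterpart of PPP1R15A, rose from 70.2 ± 8.91 to 90.7 ± 6.03 CPM (log2 fold change 0.37, SE 0.08, adjusted p = 0.0007, edgeR quasi-likelihood test). TRIB1 fell by 0.54, where TRIB3 was not called, and TRIB2 was not called (-0.03). CHAC2, the slower constitutive relative of CHAC1, and SESN1 were not called (-0.26 and -0.21), and SESN3 and DDIT4L did not pass the filter. Whether a paralog differed in response from its relative was not tested.

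The genes whose pattern over the 6 libraries was closest to that of GDF15, by the mean absolute difference of centred log2 CPM among 10586 genes, were PLAT (0.29), SBSN (0.34) and MMP1 (0.57). PLAT and SBSN were near or below the floor with BNC2 siRNA (0.219 and 0.0382 CPM), so their distance depends on the value added before taking logs, whereas MMP1 went from 425 ± 7.87 to 8.65 ± 1.86 CPM. Closest to ASNS were LOC729513 (0.06), EPB49 (0.07) and BLVRB (0.07), none of them among the 10 genes. As values were centred over both groups, this distance mainly reflects the size of the difference between the groups. The log2 fold changes were -6.46 for PLAT, -7.74 for SBSN and -5.62 for MMP1, against -6.76 for GDF15. For LOC729513, EPB49 and BLVRB they were -1.66, -1.55 and -1.60, against -1.57 for ASNS.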

How the data were processed

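Poly(A) RNA libraries (KAPA RNA HyperPrep, single-end reads) of 6 BT549 samples were used. The authors aligned reads to hg19 with STAR 2.6.1d and the UCSC gene annotation, and deposited raw gene counts, unfiltered and not pooled; the series table equals the reverse-strand column of the library tables, which strand counts here come from. Reads assigned to no gene (37.7 to 41.1% of each library) stayed out. Counts were scaled by TMM and fitted with edgeR 4.0.16 (quasi-likelihood test, R 4.3.3) over 12186 of 23346 genes with CPM above 1 in at least 3 libraries, adjusted by Benjamini-Hochberg and called at 0.05; the study used edgeR's likelihood ratio test. SE is the log2 fold change over the root of F. The members, the lists and their naming rule (in each list up to 3 called genes per direction with the largest change and at least 5 CPM; paralogs and eIF2 kinases always; the 3 genes closest in pattern to GDF15 and to ASNS) were chosen with earlier results of these data known. Positions are GENCODE 44 on GRCh37. Transcript length is that of the canonical transcript, or for DDIT4 the longest coding one. The fit was tested on simulated counts in which, unlike here, few genes changed, so that run does not check the scaling of these data. Of the 14 alternatives (2 other tests, 2 scalings, 2 filters, the replicate block, the unstranded column, 6 left-out libraries), the closing section gives the effect. Depth and the floor cover counting error only. One gene list and the item it is named for are not reported here.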

Additional observations from a re-analysis of the deposited data

How the results depend on the processing

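Over 14 alternatives, the log2 fold change was negative for 9 of the 10 genes and positive for DDIT4 under all 14, with TRIB3 and SESN2 called in 0 and ATF4 in 10; since the genes were chosen on these libraries, this describes the settings and supports nothing. ATF4 lost its call when low counts were not filtered (-0.14 on the log2 scale) and with the replicate number as a block (-0.17), and on leaving out each library in turn its log2 fold change ranged from -0.23 to -0.12. The causes were not tested. The number of genes called lay between 8084 and 9662. The replicate numbers did not pair the libraries: 0 of 3 same-numbered pairs had deviations correlated above 0.1 (-0.18, -0.08 and -0.12), and none correlated best with its own number; genes called over the whole table came to 8400 with the replicate block. Scaling by total counts alone gave 3950 higher and 4922 lower, against 4462 and 4417, and shifted the median of all genes to -0.07 and with it the medians of the mTORC1 list, from 0.06 to -0.014, and of the ATF4-linked tRNA synthetases, from 0.0031 to -0.07. With 11 to 21 counts of GDF15 in each BNC2 siRNA library, counting limits the precision of its low level.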
